A study of Mus musculus with 8 samples.

Results

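A set of 9 choroid plexus genes was followed over the 8 arrays of the study: Ttr, Folr1, Kl, Clic6, Otx2, Aqp1, Kcne2, Slc4a5 and Sostdc1. They were chosen by symbol, from probe sets that the platform annotation maps to exactly 1 gene, and all 9 were measured, each by 1 probe set, among 19938 genes in all. Whole-transcript arrays had been hybridised with RNA from the brain cortex of mouse embryos of embryonic day 16, all of a mixed strain background. The 4 VEGF arrays came from bitransgenic embryos carrying GFAP-tTA, a tetracycline-controlled transactivator under the promoter of the glial gene Gfap, and TetO-VEGF-A164, a VEGF-A transgene that the transactivator switches on, and the labels describe them as having induced overexpression of VEGF. The 4 control arrays came from embryos labelled wild type and lacking TetO-VEGF-A164, and the labels do not say whether they carried the transactivator. VEGF-A can therefore not be told apart from the transactivator or the transgene insertions. The comparison asks how expression in the cortex differs when VEGF-A, the main growth factor of blood vessels, is overexpressed.

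The choroid plexus is a sheet of cuboidal epithelium around a core of leaky vessels that hangs into the brain ventricles and secretes the cerebrospinal fluid. Its epithelium arises from the dorsal midline, next to the cortical hem, and joins the edge of the cortex at the medial wall of the lateral ventricle. It is known for carrying thyroid hormone and folate into the fluid and for moving ions and water across its apical membrane. In a bulk extract, fewer cells of a type and less RNA per cell cannot be told apart.

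Values are logarithms, taken to be of base 2, and each probe set had been centred on its median over the 8 arrays. They show how an array stands relative to the others and keep no absolute level, so whether choroid plexus RNA was abundant or scarce in these extracts cannot be read from them, nor can the labelled tissue be checked against a level. Array medians lay between -0.0091 and 0.0154, and the spread of an array's values, as an interquartile range, between 0.0609 and 0.1425. Vegfa, read by 1 probe set whose overlap with the transgene no source states, was at 0.06, 0.08, -0.03 and -0.06 in VEGF 1 to 4, against -0.10, 0.04, -0.12 and 0.03 in control 1 to 4. These ranges overlap, and Vegfa does not check the labels. The groups are called by their labels, VEGF and control, and each difference is VEGF minus control. Xist, the transcript of the inactive X chromosome, was high in 2 VEGF arrays (VEGF 2 and VEGF 3) and 1 control array (control 3), at 5.42, 5.11 and 5.27.

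Promoter windows were in hand for 5 of the 9 genes, Kl, Aqp1, Slc4a5, Otx2 and Kcne2, from RefSeq on GRCm38.p6, each running from 250 bases before to 50 bases after a start site. Windows of Kcne2, Aqp1 and Slc4a5 are shown because these genes varied closely together, and an Otx2 window because Otx2 is the transcription factor of the group. Otx2 and Kcne2 have more than 1 window. The Otx2 window shown is the only one of that gene with TAATCC, and the Kcne2 window shown is the only one of that gene with a GC box. Capitals mark the letters TAATCC, the core bound by OTX2, the TATA box TATAAA, or the GC box GGGCGG, on either strand.
Kcne2, chr16:92292139-92292438, plus strand: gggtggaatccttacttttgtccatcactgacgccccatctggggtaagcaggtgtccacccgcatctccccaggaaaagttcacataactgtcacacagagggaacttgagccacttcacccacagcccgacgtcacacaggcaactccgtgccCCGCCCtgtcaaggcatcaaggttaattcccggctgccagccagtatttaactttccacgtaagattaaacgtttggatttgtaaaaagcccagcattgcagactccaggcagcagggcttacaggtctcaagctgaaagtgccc
Aqp1, chr6:55336049-55336348, plus strand: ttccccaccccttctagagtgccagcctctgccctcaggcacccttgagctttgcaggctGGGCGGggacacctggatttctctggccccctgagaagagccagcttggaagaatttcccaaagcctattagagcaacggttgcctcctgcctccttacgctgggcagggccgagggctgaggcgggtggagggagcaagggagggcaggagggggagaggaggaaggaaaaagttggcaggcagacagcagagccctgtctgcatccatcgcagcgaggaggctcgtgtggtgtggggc
Slc4a5, chr6:83237125-83237424, plus strand: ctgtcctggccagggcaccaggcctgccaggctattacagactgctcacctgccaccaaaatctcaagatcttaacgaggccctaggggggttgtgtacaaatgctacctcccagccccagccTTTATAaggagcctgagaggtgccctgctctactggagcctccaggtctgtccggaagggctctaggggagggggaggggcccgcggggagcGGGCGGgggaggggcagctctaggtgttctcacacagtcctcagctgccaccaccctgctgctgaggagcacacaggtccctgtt
Otx2, chr14:48665060-48665359, minus strand: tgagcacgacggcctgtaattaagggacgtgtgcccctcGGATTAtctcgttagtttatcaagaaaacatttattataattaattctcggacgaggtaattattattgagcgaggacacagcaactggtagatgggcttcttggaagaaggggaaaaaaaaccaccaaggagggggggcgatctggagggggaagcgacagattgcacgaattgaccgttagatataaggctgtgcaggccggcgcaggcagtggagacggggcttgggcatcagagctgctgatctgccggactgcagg
TAATCC was found in 1 of the 9 windows of these genes, the Otx2 window above, where it reads GGATTA and begins 211 bases before the start site. Of all 32851 promoter windows 7.06% hold it. The GC box stands 95 bases before the start in Kcne2, 190 in Aqp1 and 35 in Slc4a5, and 35.7% of all windows hold one. Slc4a5 also has the TATA letters, reading TTTATA at 127 bases before its start, as do 13.6% of all windows. No overlap occurred between these matches. A match is a run of letters and not a site shown to be used, and its absence here speaks of this window alone.

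Between the groups, no gene of the set separated. Of the 9 genes 0 passed an adjusted p of 0.05 in limma, against 0% of all 19938 genes, and 0 of 9 had an unadjusted limma p under 0.05, against 12.5% of all genes. The methods' t-test gave 0 of 9 at its unadjusted threshold as well, against 10.6% of all genes. The groups overlapped in all 9 genes, whereas they did not overlap in 6.84% of all genes, 2.13% with VEGF higher and 4.71% with VEGF lower. The difference was negative in 8 of 9 genes, with Otx2 as the exception, and 56.7% of all genes had a negative difference. Most of the 9 genes vary together over the same arrays, so the count cannot be weighed against that share. The median difference of the 9 genes was -0.11, against -0.01 over all genes. The lowest adjusted p, that of Aqp1, was 0.542. As the labels do not say whether the samples of a group came from separate litters or from single or pooled embryos, each p-value measures no more than the spread among these 8 arrays.

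**Figure D1:**
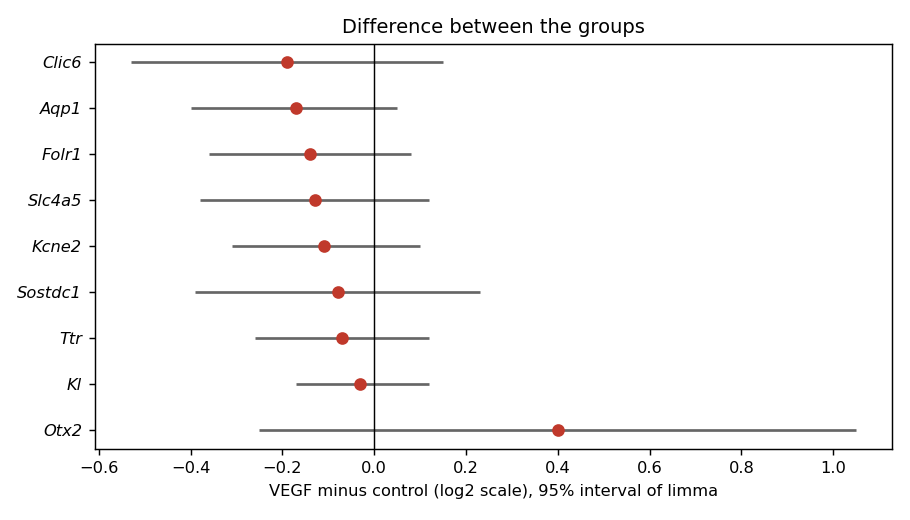
Difference between VEGF and control arrays for each of the 9 genes (x axis, log2 scale), with points for the limma estimate and lines for its 95% interval, 4 arrays a group. Every interval includes 0, and the interval of Otx2, from -0.25 to 1.05, is the widest of the 9.

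Ttr, transthyretin, is the carrier of thyroxine and retinol-binding protein and the classical marker of this epithelium. It was at 0.11, 0.00, -0.16 and -0.14 in VEGF 1 to 4, against 0.06, 0.19, -0.17 and 0.00 in control 1 to 4. Both groups held a high and a low array, and neither lay to one side of the other. The mean was -0.05 ± 0.12 in VEGF and 0.02 ± 0.15 in control (SD, n = 4 each), a difference of -0.07 (SE 0.0841, limma adjusted p = 0.825). Sostdc1, a secreted antagonist of bone morphogenetic proteins that also modulates Wnt signalling, was at 0.16, 0.06, -0.15 and -0.21 in VEGF 1 to 4, against -0.03, 0.43, -0.25 and 0.03 in control 1 to 4. Control 2 was the highest array, and control 3 was the lowest of the 8. Sostdc1 differed by -0.08 with an SE of 0.138 (limma adjusted p = 0.882), and by 0.05 without control 2.

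Folr1, the folate receptor that carries folate across the epithelium into the ventricle, was at 0.11, 0.00, -0.10 and 0.00 in VEGF 1 to 4, against 0.19, 0.42, 0.00 and -0.05 in control 1 to 4. The highest values were those of control 2 and control 1, and the other arrays of both groups lay between -0.10 and 0.11. Its difference was -0.14 (SE 0.0974, limma adjusted p = 0.614), with a 95% interval from -0.36 to 0.08. Kl, klotho, a membrane protein that acts as a coreceptor of the hormone Fgf23 and is shed into the fluid, had the narrowest spread of the 9 genes. It was at 0.11, -0.10, -0.05 and 0.06 in VEGF 1 to 4, against 0.02, 0.19, -0.05 and -0.02 in control 1 to 4. These ranges covered nearly the same span, and the difference of -0.03 (SE 0.0648, limma adjusted p = 0.916) became 0.02 without control 2 and 0.01 without VEGF 2.

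Water and ion transport was represented by Aqp1, Slc4a5, Kcne2 and Clic6. Aqp1, the water channel of the apical membrane, was at 0.06, -0.02, -0.22 and -0.18 in VEGF 1 to 4, against 0.07, 0.35, -0.12 and 0.02 in control 1 to 4. Control 2 was the highest array, and VEGF 3 and VEGF 4 were the lowest arrays. The mean was -0.09 ± 0.13 in VEGF and 0.08 ± 0.20 in control (SD, n = 4 each), and the difference of -0.17 (SE 0.0999, limma adjusted p = 0.542) had the smallest p of the set. Slc4a5, a sodium bicarbonate cotransporter of the same membrane, was at 0.29, 0.00, -0.22 and -0.11 in VEGF 1 to 4, against 0.18, 0.31, -0.01 and 0.00 in control 1 to 4. VEGF 1 and control 2 stood highest and nearly level with each other, while VEGF 3 and VEGF 4 stood lowest. Slc4a5 differed by -0.13 with an SE of 0.112 (limma adjusted p = 0.718).

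Kcne2, a small accessory subunit that shapes potassium channels such as those of Kcnq1, was at 0.08, 0.05, -0.12 and -0.27 in VEGF 1 to 4, against 0.05, 0.23, -0.06 and -0.05 in control 1 to 4. VEGF 4 was the lowest array and control 2 the highest. Kcne2 differed by -0.11 with an SE of 0.0891 (limma adjusted p = 0.707). Clic6, of the family of chloride intracellular channel proteins, was at 0.00, 0.21, -0.40 and -0.49 in VEGF 1 to 4, against 0.00, 0.20, -0.15 and 0.02 in control 1 to 4. VEGF 3 and VEGF 4 were below all other arrays, while VEGF 2 was level with control 2. The SD of Clic6 was thus 0.33 in VEGF and 0.14 in control (n = 4 each), around means of -0.17 in VEGF and 0.02 in control, and the difference was -0.19 (SE 0.149, limma adjusted p = 0.674), or 0.876-fold if the base is 2. Its 95% interval ran from -0.53 to 0.15.

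Otx2, a homeodomain transcription factor needed for the choroid plexus to form and also expressed in the diencephalon and midbrain, was the 1 gene of the 9 with a positive difference. It was at 0.73, 0.85, -0.11 and -0.43 in VEGF 1 to 4, against -0.46, 0.17, 0.11 and -0.37 in control 1 to 4. VEGF 1 and VEGF 2 stood well above every control array, but VEGF 4 lay at the level of control 1 and control 4. The mean was 0.26 ± 0.63 in VEGF and -0.14 ± 0.32 in control (SD, n = 4 each), a difference of 0.40 (SE 0.288, limma adjusted p = 0.642), or 1.32-fold if the base is 2. Without VEGF 4 the difference was 0.63 (limma adjusted p = 0.301), and without the other arrays in turn it was 0.20 or more. The SD of Otx2 over all 8 arrays, 0.509, was larger than that of 99.8% of all genes.

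**Figure D2:**
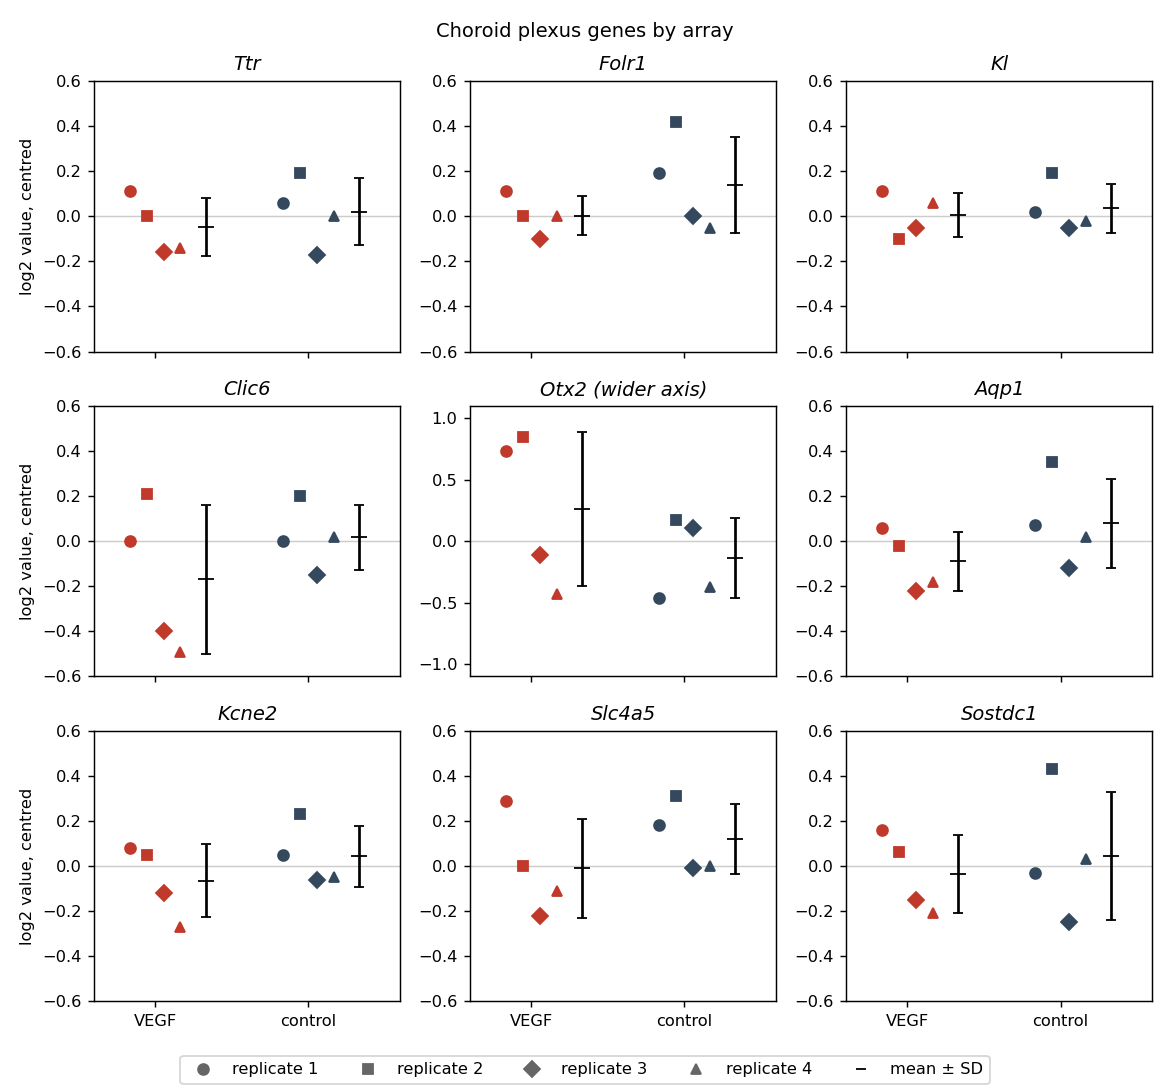
Centred log2 values of the 9 genes (y axis) in the 4 VEGF and 4 control arrays (x axis), with a symbol shape for each replicate number and the group mean ± SD beside the points. The ranges of the groups overlap in every panel, control 2 is the highest array in 7 genes, and Otx2 is drawn on a wider axis.

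Array by array, the set had a common course. Control 2 was the highest array in 7 of 9 genes, against 24.4% of all genes, and the lowest array was VEGF 3 or VEGF 4 in 5 of 9, against 30% of all genes. VEGF 3 was among the 2 lowest arrays in 6 of 9 genes, as was VEGF 4. VEGF 1 was above 0 in 8 of 9. For the counts of VEGF 3, VEGF 4 and VEGF 1 alone no share of all genes was computed. Genes that vary together share such positions, so none of these counts can be weighed against a share of all genes. With Otx2 left out, the mean of the other 8 genes was 0.11, 0.02, -0.18 and -0.17 in VEGF 1 to 4, against 0.07, 0.29, -0.10 and 0.00 in control 1 to 4. The spread within a group, 0.14 in VEGF and 0.17 in control (SD, n = 4 each), was larger than the gap between the group means of -0.05 in VEGF and 0.06 in control. Each of the 9 genes had an SD over the 8 arrays above that of the median gene, 0.0785, from 0.0953 for Kl to 0.509 for Otx2.

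Pairs of genes followed each other in the same way. Among the 28 pairs without Otx2, Pearson's r over the 8 arrays ran from 0.13 to 0.94 with a median of 0.79, as a description and without a test. Ttr and Sostdc1 were the closest pair at 0.94, Ttr and Aqp1 stood at 0.93, and Kl and Clic6 were the least alike at 0.13. The values set against each other share the array and its tissue extract, and with them any shift of the array as a whole. Each gene was also set against the mean of the other genes without Otx2. There r was 0.97 for Aqp1, 0.96 for Ttr, 0.92 for Kcne2, 0.91 for Sostdc1, 0.90 for Slc4a5, 0.84 for Folr1, 0.76 for Clic6 and 0.59 for Kl. Otx2 had an r of 0.36 with the mean of the other 8, and its r with single members lay between -0.04 for Kl and 0.52 for Clic6. With the group means removed that r was 0.63 for Otx2, above the 0.58 of Kl, while the other 7 genes had between 0.72 for Clic6 and 0.98 for Aqp1. For comparison, 3.3% of the genes outside the set had an r of at least 0.8 with the mean of the 8 genes, and the median gene had 0.20.

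**Figure D3:**
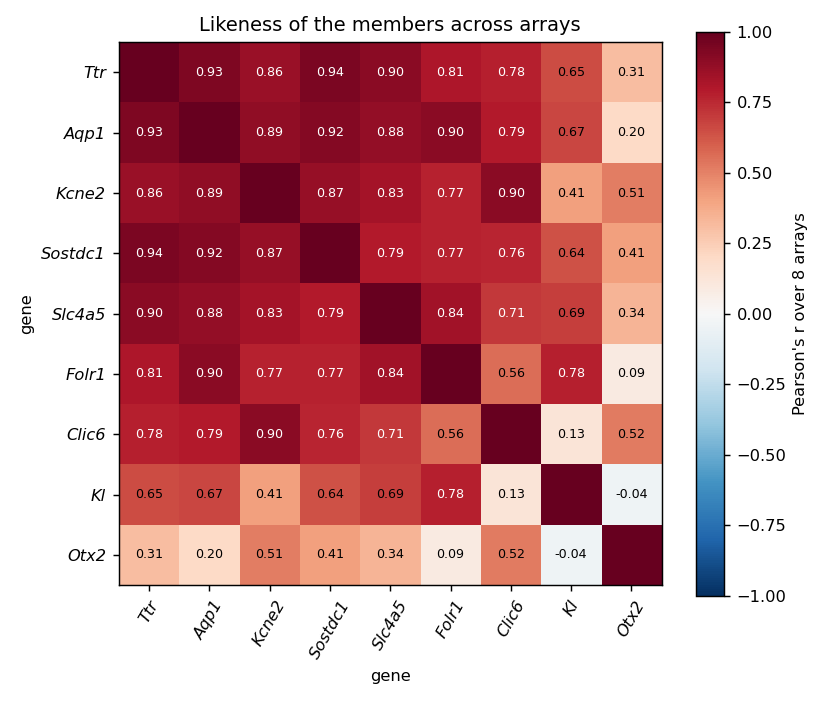
Pearson's r between the 9 genes over the 8 arrays, with both axes listing the genes and colour giving r from -1 to 1. Ttr, Aqp1, Kcne2, Sostdc1 and Slc4a5 form a block of high values, while Otx2 has no r above 0.52 with any other gene.

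A wider list of genes enriched in choroid plexus epithelium, of which 38 of 43 were measured, had the same course over the arrays. Its mean was 0.11, 0.06, -0.13 and -0.10 in VEGF 1 to 4, against 0.04, 0.15, -0.07 and 0.00 in control 1 to 4, and its r with the mean of the 8 genes was 0.97 (Spearman's rho 0.98, and r 0.97 without VEGF 3 and control 2, the arrays farthest from the median). In this list 0 genes passed over all genes in limma, 0 were higher and 2 lower at an unadjusted p under 0.05, against 4.62% and 7.84% of all genes, and the median difference was -0.03. Slc29a4, a transporter of monoamines, differed by -0.15 (limma adjusted p = 0.289), and the tight junction protein Cldn3 by -0.21 (limma adjusted p = 0.329). Igfbp2, which binds insulin-like growth factors, differed by -0.13, and Cab39l by 0.11. None of the 4 separated the groups, as each had overlapping ranges.

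Motile cilia genes followed the set as a list mean, though not gene by gene. The list mean of multiciliated cells, with 18 of 18 genes measured, was 0.05, 0.01, -0.03 and -0.03 in VEGF 1 to 4, against -0.01, 0.12, -0.03 and -0.02 in control 1 to 4. Its r with the 8 genes was 0.92 (Spearman's rho 0.90, and r 0.86 without control 2 and VEGF 1). In limma 0 of these genes passed over all genes, and the median difference was -0.01. At an unadjusted p under 0.05, 1 was higher and 1 lower, against 4.62% and 7.84% of all genes. Myb, a transcription factor of dividing progenitors that also serves early ciliogenesis, differed by 0.20. It ran against the set, highest in VEGF 3 at 0.33 and lowest in control 2 at -0.14. Foxj1, the master regulator of motile cilia, differed by -0.13, the cyclin-like Ccno by -0.10 and the radial spoke protein Rsph1 by -0.07. Spag6l, a component of the ciliary central apparatus, was among the genes most like the mean of the set with Otx2 included. It was at 0.19, 0.30, -0.48 and -0.34 in VEGF 1 to 4, against 0.02, 0.25, -0.02 and -0.05 in control 1 to 4. In VEGF 3 and VEGF 4 Spag6l lay far below the list mean, whose r without Spag6l was not computed.

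The dorsal midline tissue from which the choroid plexus arises gave a looser match. Of the roof plate and cortical hem list 17 of 18 genes were measured, 0 passed over all genes in limma, and the median difference was 0.01. At an unadjusted p under 0.05, 2 were higher and 0 lower, against 4.62% and 7.84% of all genes. Id3, a repressor induced by bone morphogenetic proteins, was at 0.26, 0.36, 0.63 and 0.03 in VEGF 1 to 4, against -0.11, -0.03, -0.15 and -0.14 in control 1 to 4. Its groups did not overlap, as in 2.13% of all genes with VEGF higher, and it differed by 0.43 (SE 0.106, limma adjusted p = 0.243). The hem ligand Wnt8b differed by 0.22, the Wnt agonist Rspo3 by 0.13 and the ligand Bmp5 by -0.34, all with overlapping groups. The r of the list mean with the 8 genes was 0.71 (Spearman's rho 0.62, and r 0.54 without control 3 and VEGF 3).

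Genes that work with single members were read next. Around Ttr, the list of thyroid hormone and retinol carriage had 9 of 10 genes measured and a median difference of -0.10, with 0 past the test over all genes in limma. At an unadjusted p under 0.05, 0 were higher and 3 lower, against 4.62% and 7.84% of all genes. The thyroid hormone receptors Thra and Thrb differed by -0.15 and -0.10, and the deiodinase Dio3, which inactivates the hormone, by -0.18, whereas Dio2, which activates it, differed by 0.14. The r of the list mean with the 8 genes was 0.87 (Spearman's rho 0.93, and r 0.75 without VEGF 3 and control 2). Around Folr1, the folate handling list had 10 of 12 genes measured and a median difference of 0.04, with 0 past the test over all genes in limma. At an unadjusted p under 0.05, 2 were higher and 0 lower, beside the same shares of all genes. Mthfd2 and Shmt1, enzymes of folate metabolism, differed by 0.29 and 0.21, Tyms, which makes thymidylate with a folate, by 0.20 and the efflux pump Abcc1 by -0.06. The r of that list mean with the 8 genes was -0.70 (Spearman's rho -0.83, and r -0.76 without VEGF 3 and control 2). The largest value of the folate list mean, 0.18, was in VEGF 3, where the 8 genes were lowest.

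Among relatives and partners of the members, 23 of 26 were measured and 0 passed over all genes in limma. At an unadjusted p under 0.05, 2 were higher and 2 lower, against 4.62% and 7.84% of all genes. Lrp4, a receptor that binds Sostdc1, was at 0.35, 0.31, 0.48 and 0.02 in VEGF 1 to 4, against -0.19, -0.03, -0.02 and -0.06 in control 1 to 4. Every VEGF array of Lrp4 was above every control array, as in 2.13% of all genes, and the difference was 0.37 (SE 0.0884, limma adjusted p = 0.243). Kcnq5, a potassium channel of neurons, was at -0.15, -0.08, -0.14 and -0.01 in VEGF 1 to 4, against 0.40, 0.17, 0.13 and 0.01 in control 1 to 4, and Aqp4, the water channel of astrocyte endfeet, differed by -0.13. In Kcnq5 and Aqp4 every VEGF array was below every control array, as in 4.71% of all genes (limma adjusted p = 0.244 and 0.245). Otx1, the paralog of Otx2 that is made in the cortex itself, differed by 0.23 with overlapping groups. The list's median difference was 0.01, and the r of its mean with the 8 genes was 0.23 (Spearman's rho 0.26, and r 0.55 without VEGF 2 and control 1).

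Neighbouring tissues and other cell types were read array by array beside the set, and their part in the values of the 9 genes was not tested. The thalamus and diencephalon list, with 14 of 14 genes measured, had a mean of 0.61, 0.54, 0.00 and -0.17 in VEGF 1 to 4, against -0.21, 0.21, -0.16 and -0.20 in control 1 to 4. Otx2 followed this list with an r of 0.94 (Spearman's rho 0.93, and r 0.73 without VEGF 1 and VEGF 2), and after the group means were removed r was 0.93. With the wider choroid plexus list Otx2 had an r of 0.52 (Spearman's rho 0.55, and r 0.63 without VEGF 3 and control 2), and 0.70 after the group means were removed. Otx2 went against the dorsal cortex list, with 12 of 14 genes measured, at an r of -0.97 (Spearman's rho -0.88, and r -0.86 without VEGF 2 and VEGF 1). That list had means of -0.26, -0.33, 0.04 and 0.10 in VEGF 1 to 4, against 0.09, -0.05, 0.04 and 0.14 in control 1 to 4. The mean of the other 8 genes had an r of 0.47 with the thalamus list and -0.39 with the cortex list (Spearman's rho 0.33 and -0.43). Without VEGF 1 and VEGF 2 these were 0.58 and -0.57, and after the group means were removed they were 0.86 and -0.74. In all, 26 such relations to 13 lists were computed, as descriptions with no test. What share of all genes has an r as far from 0 with these lists was not computed.

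**Figure D4:**
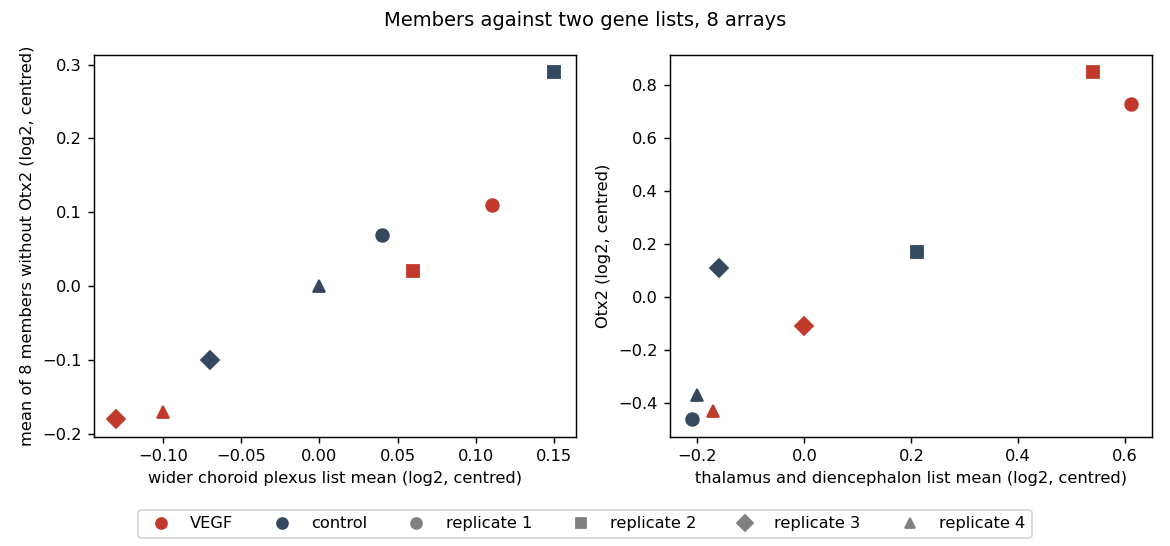
Left, mean of the 8 genes without Otx2 (y axis) against the wider choroid plexus list mean (x axis). Right, Otx2 (y axis) against the thalamus and diencephalon list mean (x axis). Points are arrays, in centred log2 values, with colour for the group and shape for the replicate number. On the left control 2 is at the upper end, and on the right VEGF 1 and VEGF 2 are.

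In the thalamus list 0 genes passed over all genes in limma, and the median difference was 0.34. At an unadjusted p under 0.05, 5 were higher and 0 lower, against 4.62% and 7.84% of all genes. Its genes of smallest p were Lef1, Irx1, Barhl2 and Pou4f1, transcription factors of thalamus, habenula and other diencephalic regions, which differed by 0.36, 0.34, 0.29 and 0.29. The groups did not overlap in 1 gene of this list, Ebf1, a transcription factor of several neuron types, named here after its values were seen. There VEGF was lower, as in 4.71% of all genes. Ebf1 was at -0.14, -0.01, -0.95 and 0.00 in VEGF 1 to 4, against 0.28, 0.00, 0.09 and 0.16 in control 1 to 4, with VEGF 3 far from the others and VEGF 4 and control 2 told apart only beyond these decimals (difference -0.41, limma adjusted p = 0.435). In the dorsal cortex list 0 passed over all genes in limma, and the median difference was -0.18. At an unadjusted p under 0.05, 1 was higher and 4 were lower, beside the same shares of all genes. Bcl11b and Neurod2, transcription factors of cortical neurons, differed by -0.48 and -0.39, and Cux2, of upper layers and their progenitors, by -0.42, whereas the progenitor factor Pax6 differed by 0.23. When the thalamus list mean was added to the fit as a covariate, an alternative chosen after the data were seen, the difference of Otx2 was -0.10 (limma adjusted p = 0.813). In that fit 7 of the 9 genes, all but Kl and Otx2, were lower at an unadjusted limma p under 0.05, against 8.95% of all genes. These 7 genes vary together over the same arrays, so they are not 7 separate results, and the count cannot be weighed against that share. The differences there were -0.44 for Clic6, -0.31 for Aqp1, -0.29 for Slc4a5, -0.28 for Sostdc1, -0.25 for Kcne2, -0.24 for Folr1 and -0.18 for Ttr. None passed over all genes, and the lowest limma adjusted p was 0.292. The list mean itself is higher in VEGF 1 and VEGF 2 than in any control array, so the covariate and the group are partly bound to each other.

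Of the other lists, the meninges list had 18 of 18 genes measured and a mean of 0.08, 0.16, -0.35 and 0.02 in VEGF 1 to 4, against -0.06, 0.14, -0.19 and -0.06 in control 1 to 4. Its r with the 8 genes was 0.68 (Spearman's rho 0.64, and r 0.67 without VEGF 3 and VEGF 2). Slc6a13, a transporter of GABA and taurine found in the leptomeninges, differed by -0.49, the chemokine Cxcl12 by -0.30, Zic2 by 0.34 and Crabp2 by 0.21. The median difference was 0.03, and in limma 0 passed over all genes. At an unadjusted p under 0.05, 1 was higher and 1 lower, against 4.62% and 7.84% of all genes. The endothelium list, with 12 of 12 genes measured, had a median difference of -0.03, with 0 past the test over all genes in limma and 0 at an unadjusted p under 0.05. Its r with the 8 genes was 0.60 (Spearman's rho 0.50), but 0.20 without VEGF 3 and control 3. The claudin Cldn5 differed by -0.24, the receptor Tie1 by -0.11, the transcription factor Erg by -0.06 and the sialomucin Emcn by 0.07.

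Red cell genes, with 10 of 14 measured, had a list mean of 0.66, 0.06, 0.28 and -0.02 in VEGF 1 to 4, against -0.15, 0.00, -0.07 and 0.00 in control 1 to 4, and an r of 0.08 with the 8 genes (Spearman's rho 0.02, and r 0.07 without VEGF 1 and VEGF 3). The heme synthesis enzyme Alas2 differed by 0.83, the globin Hbb-y by 0.44, Rhd by 0.22 and Rhag by 0.14. The median of the list was 0.26, with 0 past the test over all genes in limma. At an unadjusted p under 0.05, 3 were higher and 0 lower, against 4.62% and 7.84% of all genes. Serum protein genes of liver and yolk sac, which also make Ttr, had 10 of 12 measured and means between -0.09 and 0.06 in VEGF, against -0.06 to 0.08 in control. Here too control 2 was the highest array, at 0.08, and the 8 genes stood at 0.29 in that array. Its r with the 8 genes was 0.51 (Spearman's rho 0.55, and r 0.45 without VEGF 2 and control 2). The differences of Apoa1, Afp, Trf and Rbp4 lay between -0.06 and 0.04, the median was -0.01, and 0 genes passed over all genes in limma or had an unadjusted p under 0.05. The retina and eye list, of tissues in which Otx2 also acts, had 11 of 12 measured and a median of 0.01, with 0 past the test over all genes in limma. At an unadjusted p under 0.05, 0 were higher and 2 lower, beside the same shares of all genes. Its r with the 8 genes was 0.38 (Spearman's rho 0.10), but -0.36 without control 2 and VEGF 2. With Otx2 its r was -0.46 (Spearman's rho -0.36, and r -0.70 without the same arrays). Dct and Rlbp1, which neural progenitors also express, differed by -0.56 and -0.35, while Six6 differed by -0.17 and the pigment enzyme Tyr by 0.03.

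**Figure D5:**
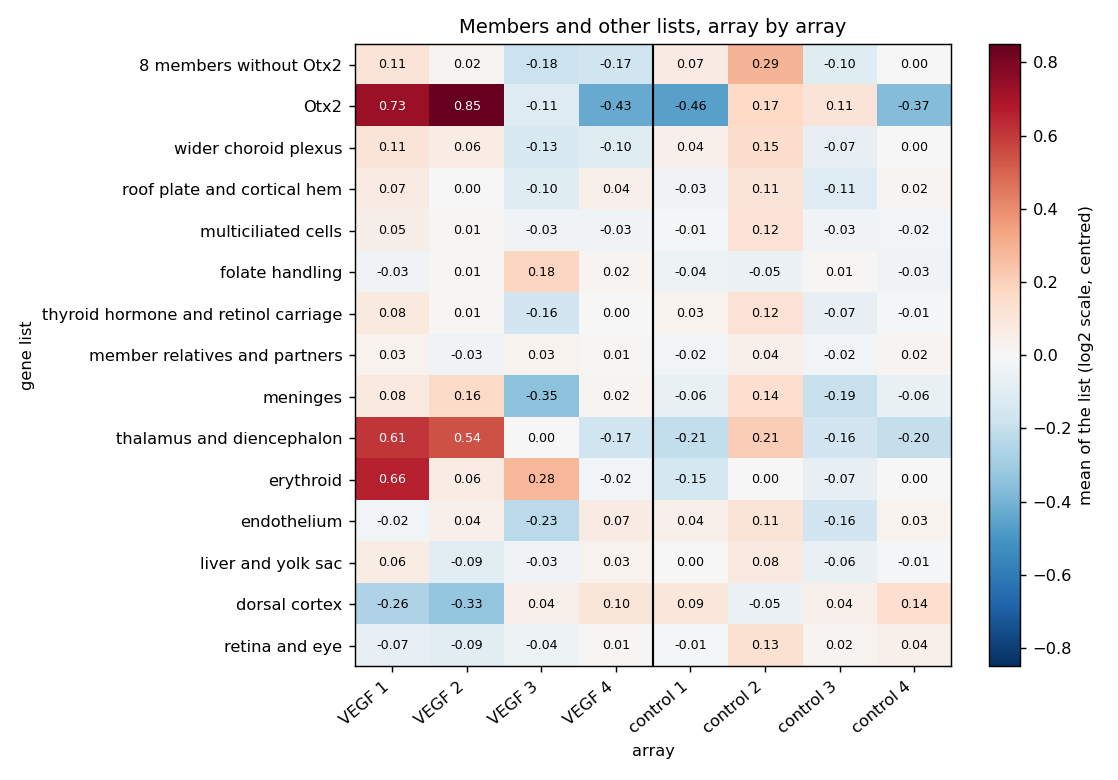
Mean centred log2 value (colour and printed number) of the 8 genes without Otx2, of Otx2 and of 13 other gene lists (y axis) in each array (x axis), with VEGF arrays left of the line and control arrays right of it. The row of the 8 genes and that of the wider choroid plexus list are highest in control 2 and lowest in VEGF 3, whereas Otx2 and the thalamus list are highest in VEGF 1 and VEGF 2.

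In all, 1070 genes had an SD of at least 0.2 over the arrays. Members of the set, predicted genes, clone names and olfactory receptors were then left out. Of the rest, those most like the mean of the 9 genes were named without a test. That mean includes Otx2, the gene of largest SD in the set. It was 0.18 in VEGF 1 and 0.12 in VEGF 2, against 0.11 and 0.02 with Otx2 left out. Likeness to the other 8 genes alone was not ranked. Htr2c, the serotonin receptor of choroid plexus epithelium, came first with an r of 0.98 over the 8 arrays. It was at 0.21, 0.21, -0.27 and -0.22 in VEGF 1 to 4, against 0.00, 0.36, -0.16 and 0.00 in control 1 to 4, so that VEGF 1, VEGF 2 and control 2 stood above the rest. Of the 15 genes, Htr2c, Vat1l, Cldn1, Kcnj13 and Sulf1 belong to the wider choroid plexus list. Kcnj13 is a potassium channel of the apical membrane and Cldn1 a tight junction protein. The others were Cbln1 (0.96), Ptpn5 (0.95), Pcsk1n (0.95), Susd4 (0.92), Gabra3, Cp and Oprl1 (0.91 each), Tmem130, Slc12a5 and Spag6l (0.90 each). Several of these are known from neurons, such as the GABA receptor subunit Gabra3, the chloride exporter Slc12a5 and the synaptic organiser Cbln1, while Cp is ceruloplasmin, the copper-carrying ferroxidase.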

How the data were processed

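RNA of brain cortex was extracted with a Qiagen RNeasy kit, and 120 ng of total RNA was made into labelled cDNA with the Ambion WT Expression and GeneChip WT terminal labelling kits, per the labels' protocols. Affymetrix Expression Console and the build mm8 are named in the submitters' processing notes. How background was corrected and probes were summarised is not stated there. The values that the authors deposited are taken as log2 from their range, with 28853 probe sets on 8 arrays with 0 missing, and each probe set has a median within 5e-07 of 0. The base of the logarithm is not stated.

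Of the probe sets, 21789 had 1 gene symbol in the platform annotation, 1621 had several and were left out, and 5443 were unnamed here. By Entrez identifier, 21698 were given their current symbol in the RefSeq table of GRCm38.p6, and probe sets of a gene were averaged. Coordinates of that build served here only for chromosomes, gene order and the promoter windows. Groups came from the sample titles. VEGF minus control was fitted with limma 3.58.1 in R 4.3.3 (lmFit and eBayes, no covariates, 3.12 prior and 6 residual degrees of freedom) and adjusted by Benjamini-Hochberg over 19938 genes at 0.05. The fit was tested on simulated data of the same spread, drawn independently for each gene. Variation that genes share over these arrays was not simulated. The 9 genes and the gene lists, of which Rbp4 and Crx stand in more than 1, were chosen with earlier results of these data known. Genes named from a list are its 4 of smallest limma p, and likeness is Pearson's r with the mean of the 9 genes. Alternatives were a replicate block, array centring, quantile normalization, a robust prior, array weights, the methods' t-test, probe sets tested alone, leaving out each array, and, added after seeing the data, the thalamus list mean and the sex pattern from Xist as covariates. With centred values no signal over background can be given, and the precision is limited by how many arrays there are.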

Additional observations from a re-analysis of the deposited data

How the results depend on the processing

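The count of the 9 genes past the test over all genes was 0 under all 17 alternatives. The count at an unadjusted p under 0.05, 0 in the reported fit, was 1 with the replicate block (Aqp1, against 13.3% of all genes), 1 with array weights (Clic6, 13.8%), 7 with the thalamus list mean as covariate (13.2%), and between 0 and 1 when arrays were left out in turn: Slc4a5 without VEGF 1 (13.6% of all genes), Clic6 without VEGF 2 (10.8%), Otx2 without VEGF 4 (14.4%) and Aqp1 without control 3 (13.3%). The 7 genes of the thalamus fit vary together and are not 7 separate results. The median difference of the 9 genes, -0.106, lay between -0.255 and -0.044 over the alternatives, and it was -0.044 without control 2, -0.047 without VEGF 4 and -0.059 without VEGF 3, against -0.153 without VEGF 1 and -0.173 without control 3. Over all genes the count of calls, 0 in the reported fit, was 1 after quantile normalization and between 0 and 10 when arrays were left out, the 10 without VEGF 4. Ttr, Folr1, Clic6, Aqp1, Kcne2 and Slc4a5 had a negative difference under all 17 alternatives, but its size depended on single arrays. Leaving out each array in turn, it ranged from -0.13 to -0.01 for Ttr, -0.21 to -0.05 for Folr1, -0.24 to -0.08 for Aqp1 and -0.15 to -0.04 for Kcne2, each smallest without control 2 (in Kcne2 also without VEGF 4). It ranged from -0.32 to -0.08 for Clic6, smallest without VEGF 4, and from -0.23 to -0.06 for Slc4a5, smallest without VEGF 3. The difference of Kl turned to 0.00 with quantile normalization (adjusted p = 0.997), 0.03 with array weights and 0.01 with the sex pattern as a covariate, and lay between -0.06 and 0.02 when arrays were left out. That of Sostdc1 lay between -0.18 and 0.05 when arrays were left out, and that of Otx2 turned to -0.10 with the thalamus covariate. The cause of these shifts was not tested. Same-numbered arrays of the groups had correlations of 0.0523, -0.13, 0.454 and 0.301 between their deviations from the group means. These were not set against arrays of different numbers, so whether the numbers pair the samples is not known. With the replicate block the SE was smaller for all members but Kl. It was 0.0645 against 0.0999 in the reported fit for Aqp1, and 0.071 against 0.0648 for Kl. The replicate block changed no call over all genes.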

Other observations

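Kcne2 and Clic6 lie near each other on chromosome 16, with 11 other genes between them in the RefSeq order of GRCm38.p6, of which 5 were measured. Their r with each other over the 8 arrays was 0.90. Rcan1, an inhibitor of calcineurin that lies between them, had an r of 0.88 with the mean of the 9 genes at far smaller values, 0.06, 0.10, -0.07 and -0.02 in VEGF 1 to 4, against -0.01, 0.07, -0.04 and 0.01 in control 1 to 4. Kcne1, the paralog of Kcne2 in the same stretch, had an r of 0.12, and Smim11, Fam243 and 2410124H12Rik had 0.03, 0.14 and 0.19. Pairs on different chromosomes exceeded the r of Kcne2 and Clic6, with 0.94 for Ttr and Sostdc1 and 0.93 for Ttr and Aqp1.

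The genes that ran most against the 9 genes included 4 annotated as microRNA genes: Mir18 with an r of -0.92, Mir181b-1 with -0.90, Mir9-1 with -0.88 and Mir19a with -0.83. Mir18 and Mir19a belong to the same microRNA cluster, and which transcript their probe sets read was not analysed here. Mir18 was at -0.62, -0.28, 0.40 and 0.32 in VEGF 1 to 4, against 0.12, -0.41, 0.06 and -0.06 in control 1 to 4, so that VEGF 1 and control 2 were lowest. The histone gene H4c6 had an r of -0.84.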
